A study of Mus musculus with 12 samples.

Results

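Hilpda and 9 other genes of lipid droplets and lipid supply are described here across wild-type (WT) and Stk11-deleted (KO) mouse macrophages, with and without interleukin-4 (IL-4). The 10 genes, Hilpda, Pnpla2, Abhd5, Plin2, Plin3, Dgat1, Dgat2, Lpl, Fabp4 and Fabp5, were taken by name from the 13715 genes of the deposited count table, and each was measured in all 12 libraries. They were selected on results of these libraries. The values that chose them were the higher Hilpda level in KO cells under both conditions and the lower Lpl level in mock KO cells, so these 3 differences are given as a description, with no test.

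The cells were bone marrow-derived macrophages (BMDMs), that is, marrow cells grown into macrophages with the growth factor M-CSF at 40 ng/ml during 7 days of culture in every group. KO marrow came from LysMCre Stk11 fl/fl mice, in which Cre recombinase made from the Lyz2 locus acts in myeloid cells on the floxed gene of the kinase LKB1. WT marrow is labelled only as WT, and neither the age of the mice nor whether WT mice carried the Cre or the floxed allele is stated in the labels. The 4 groups of 3 libraries were KO with IL-4, WT with IL-4, KO mock and WT mock, where IL-4, a cytokine that drives alternative macrophage activation, was given at 20 ng/ml for 24 h. Separate mice are not named for the samples of a group, so p-values reflect only how far these samples differed, and that spread may be technical. In such bulk RNA, fewer cells of a type and less RNA per cell cannot be told apart.

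Lipid droplets are stores of triglyceride and cholesteryl ester, bounded by a phospholipid layer and coated by perilipins. Fatty acids reach the cell through lipoprotein lipase and fatty acid-binding proteins, are esterified to triglyceride by the DGAT enzymes, and are released again by adipose triglyceride lipase (ATGL, encoded by Pnpla2), which ABHD5 activates and HILPDA inhibits. Macrophages filled with droplets are the foam cells of atherosclerotic plaques, and Hilpda and Plin2 are known as genes that respond to hypoxia and to fatty acids.

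The libraries held 30651627 to 39136822 counts. Stk11 averaged 7.70 ± 1.92 depth-scaled counts (CPM) in KO and 45.2 ± 8.19 CPM in WT cells with IL-4, and 5.99 ± 2.52 CPM in KO and 42.9 ± 4.52 CPM in WT mock cells (SD, n = 3 each). Both KO libraries numbered 2 stood apart at Lyz2, the gene that carries LysMCre, with 43.4 CPM with IL-4 and 43.1 CPM in mock, against 15362 to 21618 CPM in the other KO libraries and 28471 to 44637 CPM in WT. Calls that were lost or gained without both of these libraries are given beside the result. All 10 macrophage markers were measured, of which 2 rose and 1 fell in KO with IL-4 and 4 rose and 3 fell in KO mock cells. The 9 other than Lyz2 had group means that summed to 9017 CPM in KO and 9122 CPM in WT with IL-4, and to 7820 CPM in KO and 8024 CPM in WT mock cells. Summed neutrophil markers (14 of 15 measured) lay at 589 to 1073 CPM in KO and 320 to 450 CPM in WT with IL-4, and at 762 to 1330 CPM in KO and 420 to 579 CPM in WT mock libraries. Summed erythroid and megakaryocyte markers (4 of 8, mostly Pf4) lay at 513 to 601 CPM in KO and 41.2 to 63.8 CPM in WT with IL-4, and at 575 to 646 CPM in KO and 39.9 to 57.9 CPM in WT mock libraries. Summed dendritic markers (2 of 6, mostly Itgax) lay at 395 to 538 CPM in KO and 1036 to 1349 CPM in WT with IL-4. In mock libraries they lay at 43.2 to 69.3 CPM in KO and 197 to 232 CPM in WT. Zbtb46, the other dendritic marker measured, was low, at means of 1.12 CPM in KO and 1.82 CPM in WT with IL-4. In mock cells its means were 0.299 CPM in KO and 0.261 CPM in WT. Summed endothelial markers (3 of 6, mostly Vwf) lay at 82.3 to 102 CPM in KO and 127 to 143 CPM in WT with IL-4. In mock libraries the sums lay at 27.4 to 38.3 CPM in KO and 55.1 to 64.1 CPM in WT. In each condition 2 of these 3 markers rose in KO and 1 fell, so the lower sum does not describe most of them. With IL-4, Vwf averaged 72.4 CPM in KO and 128 CPM in WT, and Pecam1 15.3 and 4.96 CPM. Mean Kdr was also higher in KO in both conditions. Of the stromal (4 of 8) and the mast and basophil markers (4 of 6), none was called between KO and WT. The part of these cells in the results was not tested. Of 8 adipocyte markers, a cell type that shares several of the lipid genes, 1 was in the table: Adipoq lay at 0.904 to 1.24 CPM in KO and 1.11 to 1.55 CPM in WT with IL-4, at no more than 0.0276 CPM in KO mock, and at 0 in WT mock libraries, where 0 counts allow up to 0.0962 CPM. No value of the 6 lymphoid markers was analysed here.

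Hilpda lies at chr6:29272488-29275446 on the plus strand (mm10), and Plin2 at chr4:86648386-86670060 on the minus strand. The promoters of these 2 genes are shown because both genes were higher in KO cells and lower with IL-4. They come from RefSeq (GRCm38.p6), whose promoter table matched 5 of the 10 genes, Hilpda with 2 start sites. Each sequence runs 5′ to 3′ from 250 bases before to 10 bases after the start site. Capitals mark ACGTG, a form of the core of the hypoxia response element, or TGACG, the core of the cyclic AMP response element, on either strand. The other form of the hypoxia core, GCGTG, was not searched.
Hilpda, upstream start, chr6:29272238-29272497, plus strand: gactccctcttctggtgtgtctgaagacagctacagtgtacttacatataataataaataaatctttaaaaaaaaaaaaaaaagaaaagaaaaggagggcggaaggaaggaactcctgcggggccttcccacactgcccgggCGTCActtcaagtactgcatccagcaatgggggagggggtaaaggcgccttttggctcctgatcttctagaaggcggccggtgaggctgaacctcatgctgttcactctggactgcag
Plin2, chr4:86670050-86670309, minus strand: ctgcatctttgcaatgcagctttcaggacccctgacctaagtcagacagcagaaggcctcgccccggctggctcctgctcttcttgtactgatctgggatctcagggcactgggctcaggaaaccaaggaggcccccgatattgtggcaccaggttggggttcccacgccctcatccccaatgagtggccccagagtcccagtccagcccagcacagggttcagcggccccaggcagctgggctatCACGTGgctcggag
In the Plin2 promoter, ACGTG began 3 bases before the start site, and overlapped the same letters read on the other strand because CACGTG is its own reverse complement. In Hilpda ACGTG lay 43 bases before the downstream start site, and is shown within the 30 bases at chr6:29272571-29272600 on the plus strand.
Hilpda, downstream start, core site: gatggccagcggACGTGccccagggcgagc
ACGTG was present on at least 1 strand in 19.6% of all 32851 promoter windows of the table (250 bases before to 50 after the start). It was in 2 of the 6 windows of the 5 genes, the downstream window of Hilpda and the window of Plin2. The upstream window of Hilpda and those of Plin3, Pnpla2 and Abhd5 did not hold it. TGACG was present in 20.8% of windows, and in those of Hilpda and Abhd5. The full element TGACGTCA, which contains TGACG, was in 1.79% of windows and in none of the 5 genes.

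Divided by gene length, mRNA levels of the 10 genes spanned more than 2 orders of magnitude, as the plot of levels per length shows. Plin2 was the most abundant, at a mean of 1324 CPM per kilobase over the 12 libraries, the 25th highest of all 13715 genes. Lpl (417), Fabp5 (368), Pnpla2 (95.7), Plin3 (84.2) and Hilpda (64.2 CPM per kilobase) followed, and Fabp4 (16.8), Dgat1 (14.7), Abhd5 (9.75) and Dgat2 (3.35 CPM per kilobase) were the lowest. This order rests on the deposited lengths, which join all annotated exons. For Fabp4 the deposited length of 4489 bases equals its whole gene span, introns included. With the principal transcript of GENCODE M21 as length, an alternative chosen after seeing the data, Fabp4 (896 bases) stood at 84.0 CPM per kilobase, above Hilpda at 72.2, and Fabp5 at 1329, above Lpl at 1062 CPM per kilobase. The order of these neighbours is therefore not settled by the files. Hilpda varied most, with its highest library at 12.2 times its lowest, against 3.74 times for Plin2, 2.68 times for Dgat2 and 2.40 times for Lpl. Plin3 and Abhd5 varied least, at 1.27 and 1.29 times.

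**Figure D1:**
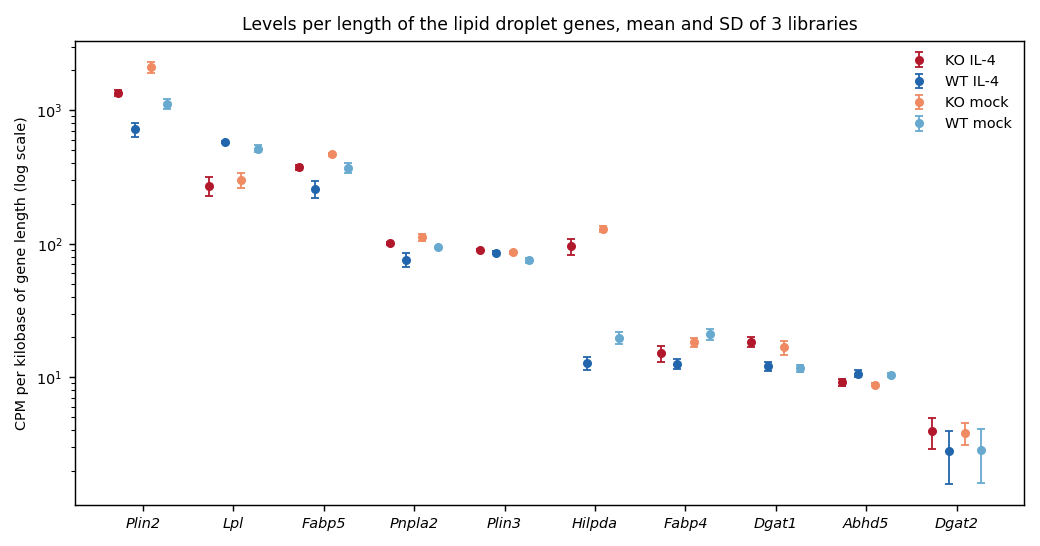
CPM per kilobase of deposited gene length (log axis) of the 10 genes, ordered by their mean over 12 libraries; points are group means and bars SDs of 3 libraries. Plin2 leads at 720.8 to 2106 CPM per kilobase by group, Hilpda lies near Pnpla2 in KO and near Fabp4 in WT, and Dgat2 is lowest.

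In KO against WT cells, members of each role moved, and more were called higher than lower in both conditions. Without IL-4, 5 of the 8 members tested rose and 1 fell, where 34.5% of all genes were called (15.7% higher and 18.8% lower, adjusted p under 0.05). With IL-4, 4 of the 9 tested rose and 2 fell, where 18.8% of all genes were called (8.57% higher and 10.2% lower). The median log2 fold change of the tested members was 0.30 without and 0.40 with IL-4, and that of all genes was -0.02 and -0.01. The KO and WT libraries did not overlap for 6 members that were higher and 2 that were lower, in either condition, against 22.7% and 24.98% of all genes without IL-4 and 17.1% and 18.8% with IL-4. These counts include Hilpda in both conditions and Lpl in mock cells, whose values chose the list. Among the members tested, 5 of 8 were higher and 1 lower without overlap in mock cells, and 5 of 9 higher and 2 lower with IL-4.

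**Figure D2:**
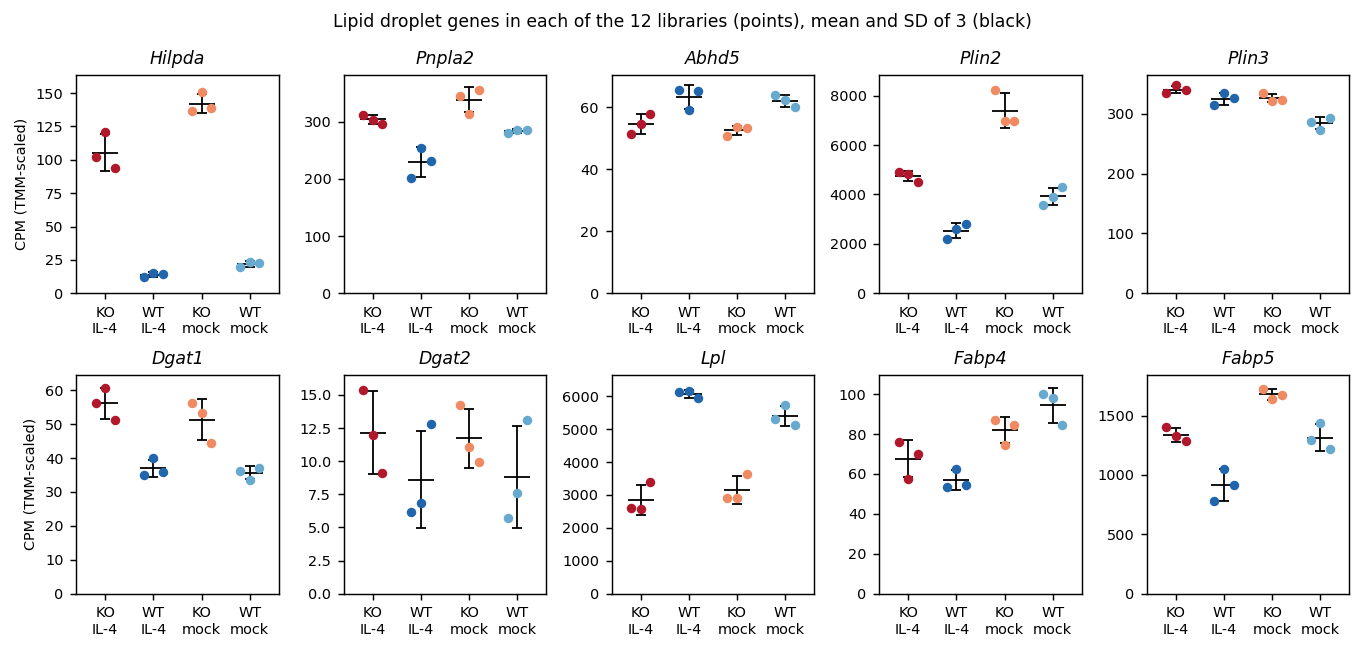
TMM-scaled CPM of each gene (1 panel each, linear axis from 0) in the 12 libraries, with the mean and SD of 3 in black. Hilpda shows the widest gap between KO (93.7 to 151 CPM) and WT (12.3 to 23.1 CPM), Plin2 and Lpl are separated by genotype in opposite directions, and Dgat2 overlaps between all groups.

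Hilpda, which encodes a small droplet protein that inhibits ATGL, had the largest difference of the 10 genes. With IL-4 its levels in libraries 1, 2 and 3, in that order here and throughout, were 102, 120 and 93.7 CPM in KO, against 12.3, 15.2 and 14.8 CPM in WT. Without IL-4 it stood at 137, 151 and 139 CPM in KO, against 19.4, 23.1 and 23.1 CPM in WT. Every KO library was above every WT library, and the KO mean was 7.47 times the WT mean with IL-4 and 6.498 times without it. The fitted log2 fold changes were 2.902 (SE 0.11) and 2.699 (SE 0.11), the 21st and 20th highest of 13715 genes. Without both KO libraries numbered 2 they were 2.80 and 2.68. Hilpda is the shortest of the 10 genes by deposited length (1103 bases), and fold changes of KO against WT without IL-4 fell with gene length (Spearman's rho = -0.29; it runs across genes and so not over independent replicates).

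Pnpla2, the gene of the lipase that HILPDA inhibits, rose by a smaller amount. With IL-4 it stood at 312, 304 and 296 CPM in KO against 202, 254 and 232 CPM in WT (log2 fold change 0.40, SE 0.08, adjusted p = 0.00223). Without IL-4 it stood at 344, 314 and 356 CPM in KO against 280, 286 and 286 CPM in WT (0.25, SE 0.08, adjusted p = 0.0220). The groups did not overlap in either condition. The rise without IL-4 was not called with a correction for gene length (0.14, adjusted p = 0.119), with library size alone as scaling (adjusted p = 0.0504), or without KO mock library 1 (0.0580) or 3 (0.0814).

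Abhd5, the activator of ATGL, went the other way by a small amount. It stood at 51.4, 54.5 and 57.8 CPM in KO against 65.5, 58.9 and 65.3 CPM in WT with IL-4 (-0.21, SE 0.07, adjusted p = 0.0483), and at 50.7, 53.5 and 53.2 CPM in KO against 63.8, 62.4 and 59.9 CPM in WT without IL-4 (-0.24, SE 0.07, adjusted p = 0.0168). KO and WT libraries did not overlap, with gaps of about 1 CPM with IL-4. The call was lost in 16 of 22 alternative settings with IL-4, including the removal of any 1 library except WT IL-4 library 2 (adjusted p up to 0.232). Without IL-4 it was lost in 6 of 22, including the fits that leave out WT library 1 (0.109), WT library 2 (0.0697) and KO library 1 (0.0801). Without both KO libraries numbered 2, the adjusted p was 0.178 with IL-4 and 0.0748 in mock. Abhd5 overlaps the antisense gene A730085K08Rik, shares 15.1% of its 50-base words with 4 other genes, and the labels do not say whether counting used strand, so its counts are uncertain.

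Set against its target, Hilpda mRNA per kilobase amounted to 0.949 ± 0.121 of Pnpla2 in KO and 0.168 ± 0.00596 in WT with IL-4, and to 1.16 ± 0.136 in KO and 0.211 ± 0.0185 in WT without IL-4 (SD, n = 3 each). Abhd5 per kilobase amounted to 0.0912 ± 0.00774 of Pnpla2 in KO and 0.141 ± 0.0233 in WT with IL-4, and to 0.0789 ± 0.00651 in KO and 0.111 ± 0.00463 in WT without IL-4. For both ratios KO and WT libraries did not overlap. The ratio of Hilpda carries its higher level in KO cells, which chose the list, so its separation is a description and no further result. These ratios use the deposited lengths. With principal transcript lengths, Hilpda and Pnpla2 stood at 107 and 169 CPM per kilobase in KO with IL-4, and at 145 and 188 in KO mock.

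Plin2, the main perilipin of macrophages, rose in KO cells in both conditions. With IL-4 it stood at 4910, 4836 and 4497 CPM in KO against 2197, 2595 and 2802 CPM in WT (0.91, SE 0.10, adjusted p = 3.46e-05). Without IL-4 it stood at 8209, 6987 and 6988 CPM in KO against 3573, 3910 and 4282 CPM in WT (0.91, SE 0.10, adjusted p = 2.15e-05). Every KO library was above every WT library, and both calls were kept in all 22 alternative settings, with fold changes between 0.82 and 1.003. Plin2 thus ranked 396th of 13715 genes by its rise with IL-4 and 369th without it.

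Plin3, a perilipin that moves between cytosol and droplets, differed little. It stood at 335, 347 and 339 CPM in KO against 314, 334 and 326 CPM in WT with IL-4 (0.07, SE 0.06, adjusted p = 0.454), and at 335, 322 and 323 CPM in KO against 287, 273 and 292 CPM in WT without IL-4 (0.20, SE 0.06, adjusted p = 0.0123). The rise without IL-4 was not called with library size alone as scaling (adjusted p = 0.0526). Plin2 per kilobase was 15.05 ± 0.752 times Plin3 in KO and 8.39 ± 0.868 times in WT with IL-4, and 24.4 ± 1.78 times in KO and 14.9 ± 1.27 times in WT mock cells (SD, n = 3 each).

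Of the enzymes of the last step of triglyceride synthesis, Dgat1 rose and Dgat2 did not pass the test. Dgat1 stood at 56.3, 60.5 and 51.3 CPM in KO against 35.1, 39.9 and 35.8 CPM in WT with IL-4 (0.60, SE 0.10, adjusted p = 0.000593). Without IL-4 it stood at 56.3, 53.2 and 44.5 CPM in KO against 36.2, 33.5 and 37.2 CPM in WT (0.53, SE 0.10, adjusted p = 0.000978). The KO libraries were all above the WT libraries, and both calls were kept in all 22 alternative settings. Dgat2, an enzyme of a different protein family, stood at 15.4, 11.97 and 9.11 CPM in KO against 6.16, 6.81 and 12.8 CPM in WT with IL-4 (0.50, SE 0.30, adjusted p = 0.286), and at 14.2, 11.05 and 9.95 CPM in KO against 5.74, 7.58 and 13.1 CPM in WT without IL-4 (0.40, SE 0.31, adjusted p = 0.329). In both conditions WT library 3 lay within the KO range. Without WT IL-4 library 3 the difference with IL-4 was 0.91 (adjusted p = 0.0455). Without IL-4 the difference lay between 0.20 and 0.84 over 22 alternative settings, none of which called it (lowest adjusted p = 0.0560).

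Lpl, the gene of lipoprotein lipase, was lower in KO cells. With IL-4 it stood at 2600, 2573 and 3379 CPM in KO against 6130.5, 6171 and 5934 CPM in WT (-1.09, SE 0.11, adjusted p = 1.82e-05), a call kept in all 22 alternative settings. Without IL-4 it stood at 2910, 2903 and 3646 CPM in KO against 5315, 5749 and 5139 CPM in WT, with a log2 fold change of -0.78 (SE 0.11, not tested). KO library 3 was the highest KO library in both conditions, and remained below every WT library. With a correction for gene length the difference without IL-4 was -0.51, and Lpl has the longest deposited length of the 10 genes (10478 bases). Lpl per kilobase amounted to 0.203 ± 0.0427 of Plin2 in KO and 0.814 ± 0.114 in WT with IL-4, and to 0.144 ± 0.0284 in KO and 0.465 ± 0.0540 in WT mock cells (SD, n = 3 each).

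Of the fatty acid-binding proteins, Fabp5 rose in KO cells and Fabp4 did not pass the test. Fabp5 stood at 1403, 1326 and 1289 CPM in KO against 781, 1049 and 914 CPM in WT with IL-4 (0.55, SE 0.09, adjusted p = 0.000843). Without IL-4 it stood at 1725, 1639 and 1669 CPM in KO against 1293, 1435 and 1218 CPM in WT (0.35, SE 0.09, adjusted p = 0.00941). Its KO and WT libraries did not overlap, and both calls were kept in all 22 alternative settings. Fabp4, better known from adipocytes, stood at 75.9, 57.4 and 69.8 CPM in KO against 53.5, 62.7 and 54.4 CPM in WT with IL-4 (0.25, SE 0.11, adjusted p = 0.120), and at 87.1, 74.7 and 84.7 CPM in KO against 100.2, 98.3 and 84.5 CPM in WT without IL-4 (-0.20, SE 0.11, adjusted p = 0.162). Without KO IL-4 library 2 the difference with IL-4 was 0.36 (adjusted p = 0.0343), and without both KO libraries numbered 2 it was 0.36 (adjusted p = 0.0332).

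**Figure D3:**
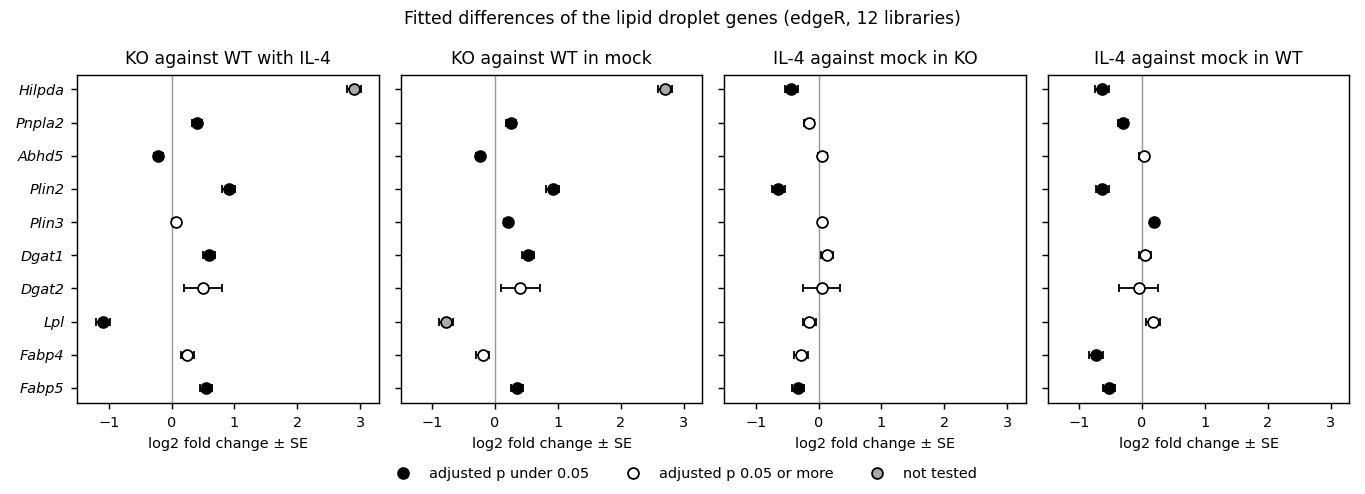
Fitted log2 fold changes with SEs of the 10 genes in 4 comparisons; filled points passed an adjusted p of 0.05, open points did not, and grey points were not tested. The genotype panels hold Hilpda at 2.902 and 2.699 and Lpl at -1.09 and -0.78, and the IL-4 panels hold no rise larger than 0.19.

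Hilpda, Plin2 and Fabp5 fell with IL-4 in both genotypes. In KO cells 3 of 10 members fell and none rose, where 30.3% of all genes were called (16.0% higher and 14.2% lower). In WT cells 5 of 10 fell and 1 rose, where 26.7% of all genes were called (13.6% higher and 13.0% lower). Hilpda averaged 105 ± 13.7 CPM with IL-4 and 142 ± 7.44 CPM in mock KO cells (-0.43, SE 0.10, adjusted p = 0.00536), and 14.1 ± 1.58 CPM with IL-4 and 21.9 ± 2.15 CPM in mock WT cells (-0.63, SE 0.11, adjusted p = 0.000575). The fall in KO was not called with the length correction (-0.29, adjusted p = 0.0604). Plin2 fell by nearly the same amount in KO (-0.64, SE 0.10, adjusted p = 0.000218) and in WT (-0.63, SE 0.10, adjusted p = 0.000227). Fabp5 fell in KO (-0.32, SE 0.09, adjusted p = 0.0156) and in WT (-0.52, SE 0.09, adjusted p = 0.000602). The KO call of Fabp5 was lost without KO mock library 1 (0.0507), without KO IL-4 library 3 (0.0636) and without both KO libraries numbered 2 (0.0694).

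A further 3 members passed the test in WT cells. Fabp4 averaged 56.9 ± 5.09 CPM with IL-4 and 94.3 ± 8.57 CPM in mock WT cells (-0.73, SE 0.11, adjusted p = 0.000119). In KO cells it averaged 67.7 ± 9.43 CPM with IL-4 and 82.2 ± 6.57 CPM in mock (-0.28, SE 0.11, adjusted p = 0.0610). Pnpla2 fell in WT (-0.31, SE 0.08, adjusted p = 0.00875, and 0.0592 without WT IL-4 library 1) and stood at -0.15 in KO (SE 0.08, adjusted p = 0.152). Plin3 rose in WT (0.19, SE 0.06, adjusted p = 0.0177) and stood at 0.06 in KO (SE 0.06, adjusted p = 0.448). Abhd5, Dgat1 and Dgat2 lay between -0.05 and 0.13 in both genotypes, with adjusted p of 0.339 or more. For Lpl the change was -0.15 in KO (SE 0.11, adjusted p = 0.343) and 0.17 in WT (SE 0.11, adjusted p = 0.286).

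Whether the IL-4 response differed between genotypes was tested as an interaction, that is, the IL-4 effect in KO cells less the IL-4 effect in WT cells on the log2 scale. None of the 10 members was called by edgeR or by DESeq2, where edgeR called 0.736% of all genes (0.328% higher and 0.408% lower), and 1 member, Fabp4, had an unadjusted p under 0.05. For Hilpda the difference was 0.20 (SE 0.15, adjusted p = 0.493), and for Plin2 -0.01 (SE 0.14, adjusted p = 0.984). The paired falls of Hilpda were -0.43, -0.32 and -0.57 in KO and -0.65, -0.61 and -0.64 in WT, which did not overlap. Within each genotype, IL-4 and mock libraries of the same number deviated together from their group means, so the test was repeated with the number as a block within genotype. That fit called 2 of the 10 members, Lpl and Fabp4, where it called 11.6% of all genes in the interaction, and it called 38.5% of all genes for IL-4 in KO and 33.5% in WT. Hilpda was called where a length correction was added to this block (0.44, adjusted p = 0.0114), and not with the block alone (0.20, adjusted p = 0.204) or the length correction alone (0.45, adjusted p = 0.194). With the block Lpl differed by -0.32 (SE 0.07, adjusted p = 0.0121, against 0.291 without the block), with a fall in KO (-0.15, adjusted p = 0.0277) and a rise in WT (0.17, adjusted p = 0.0144). The paired changes of Lpl were -0.16, -0.17 and -0.11 in KO and 0.21, 0.10 and 0.21 in WT, so that it was lower with IL-4 in 3 of 3 KO pairs and higher in 3 of 3 WT pairs. Fabp4 differed by 0.45 (SE 0.10, adjusted p = 0.0115, against 0.140 without the block), and its fall in KO was called (-0.29, adjusted p = 0.00379). Its paired changes were -0.20, -0.38 and -0.28 in KO and -0.91, -0.65 and -0.64 in WT, which did not overlap. For Dgat2, KO library 1 was the highest KO library and WT library 3 the highest WT library in both conditions.

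**Figure D4:**
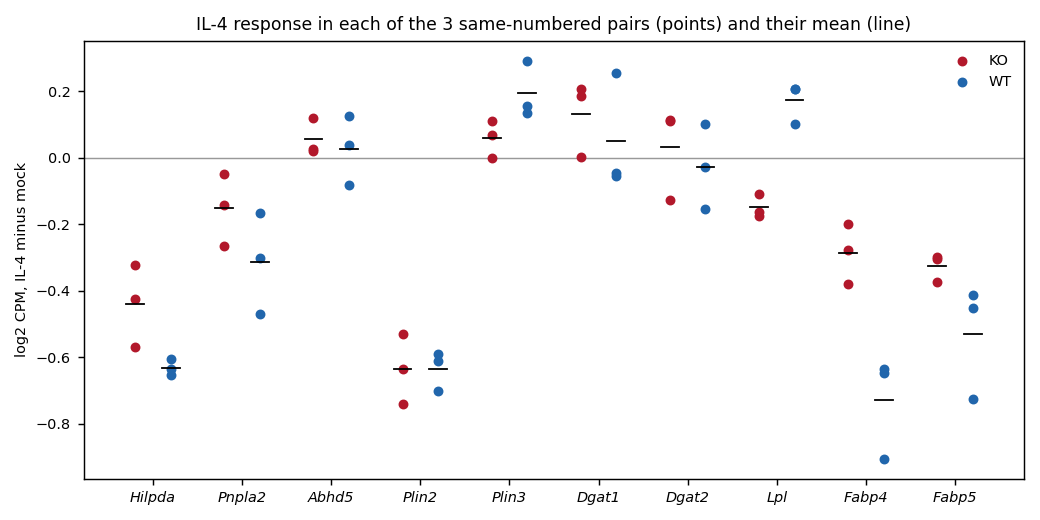
Difference in log2 CPM, IL-4 minus mock, for each pair of same-numbered libraries (points, KO left of WT) and their mean (line) for the 10 genes. Lpl lies below 0 in all 3 KO pairs and above 0 in all 3 WT pairs, Fabp4 falls less in KO than in WT pairs, and Plin2 falls alike.

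Other genes of droplet biology were read from 5 lists, of which 84 of 111 genes were measured. In the KO against WT comparisons that follow, a gene that rose or fell did so in KO relative to WT cells, in the presence of IL-4 or in its absence. Most genes are named only for a comparison where they were among the 3 largest called differences of their list. A gene named with IL-4 only, or without it only, may therefore differ in the other condition as well. With IL-4, 14 of the 84 were higher and 9 lower in KO than in WT, and without IL-4 19 were higher and 15 lower, at medians of 0.06 and 0.02. Over all genes, 18.8% and 34.5% were called in these comparisons, with medians of -0.01 and -0.02. Without both KO libraries numbered 2, 9 rose and 6 fell with IL-4. Of 13 measured coat and assembly genes 2 rose with IL-4, and 3 rose and 1 fell without it. Bscl2, the gene of the droplet assembly protein seipin, averaged 172 ± 5.71 CPM in KO and 137 ± 7.28 CPM in WT with IL-4 (0.33, SE 0.06, adjusted p = 0.00264), and 172 ± 9.42 CPM in KO and 116 ± 4.37 CPM in WT mock cells (0.57, SE 0.06, adjusted p = 2.97e-05). Tmem159, an older symbol of Ldaf1, whose protein is a partner of seipin, rose without IL-4 (0.42, SE 0.09, adjusted p = 0.00351). Rab8a, a small GTPase gene, rose with IL-4 (0.23, adjusted p = 0.0289) and without it (0.37, adjusted p = 0.000847), and Pcyt1a, the phosphatidylcholine synthesis gene, fell without it (-0.38, adjusted p = 0.0107). Rab8a lost its call with IL-4 without WT IL-4 library 1 (0.108), KO IL-4 library 1 (0.0898) or 2 (0.0668), or both KO libraries numbered 2 (0.0807), and Pcyt1a in fits that left out WT mock library 3 (0.0620) or KO mock library 1 (0.0589).

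Of 21 measured genes of triglyceride and sterol ester synthesis 3 rose and none fell with IL-4, and 5 rose and 3 fell without it. Lpin2, which encodes a phosphatidate phosphatase that makes diacylglycerol, rose in both (0.53, SE 0.10, adjusted p = 0.00184 with IL-4, and 0.47, SE 0.10, adjusted p = 0.00247 without). With IL-4, Tmem68 rose by 0.36 (adjusted p = 0.0137, and 0.0521 without KO IL-4 library 3). Soat1, whose enzyme makes cholesteryl ester, rose by 0.22 (adjusted p = 0.0420), a call lost in 9 of 22 alternative settings, among them the removal of KO IL-4 library 2 or 3, WT IL-4 library 1 or 2, KO mock library 2 or 3, or both KO libraries numbered 2 (0.185). Of the acyltransferase genes of earlier steps, Gpam (-0.63, SE 0.16, adjusted p = 0.00951) and Agpat1 (-0.62, SE 0.20, adjusted p = 0.0307) fell without IL-4. Others, named after their values were seen, were higher in KO than in WT mock libraries, without overlap. These were Agpat2 (66.5 CPM in KO, 53.0 CPM in WT), Agpat4 (36.8 and 29.3 CPM), Agpat5 (49.5 and 39.5 CPM) and Gpat3 (0.908 and 0.317 CPM). Gpam was not called when WT mock library 3 was left out (0.0527), nor was Agpat1 when either WT mock library 1 (0.123) or 2 (0.142) or KO mock library 1 (0.141) or 2 (0.0940) was, nor without both KO libraries numbered 2 (0.123). Of 11 measured genes of the lipolysis list 3 rose and none fell with IL-4, and 2 rose and 1 fell without it. Both counts of rises include Ubxn8. Ubxn8, which was put in this list but encodes a UBX-domain protein and not a lipase, rose in both (0.55, SE 0.11, adjusted p = 0.00354 with IL-4, and 0.61, SE 0.11, adjusted p = 0.000863 without). Its part in lipolysis was not tested. Mgll, the monoacylglycerol lipase gene, fell without IL-4 (-0.58, SE 0.16, adjusted p = 0.0125, 0.0505 without WT mock library 3, and 0.0554 without both KO libraries numbered 2). Nceh1, the gene of a neutral cholesteryl ester hydrolase, rose with IL-4 (0.29, adjusted p = 0.0213), a call lost without WT IL-4 library 1 or 2, KO IL-4 library 2 or 3, or both KO libraries numbered 2 (0.117). Pnpla8, a phospholipase gene, rose with IL-4 (0.38, adjusted p = 0.0428), a call lost in 10 of 22 alternative settings, among them the removal of any of these libraries, of WT mock library 1 or 2, or of KO mock library 2 or 3 (adjusted p up to 0.168). G0s2, another inhibitor of ATGL named after its values were seen, was barely detected. It averaged 0.742 ± 0.503 CPM in KO and 0.275 ± 0.217 CPM in WT with IL-4 (SD, n = 3 each), where the libraries overlapped. In mock cells it averaged 1.45 ± 0.381 CPM in KO and 0.327 ± 0.0427 CPM in WT, without overlap. Besides Ubxn8, it was the gene of the lipolysis list called higher in KO without IL-4.

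Of 17 measured genes of lipid uptake and of the control of lipoprotein lipase 2 rose and 3 fell with IL-4, and 3 rose and 4 fell without it. Cd36, a lipid uptake receptor gene named after its values were seen, averaged 3922 ± 231 CPM in KO and 2698 ± 380 CPM in WT with IL-4. In mock cells it averaged 3131 ± 191 CPM in KO and 1913 ± 146 CPM in WT. Its KO and WT libraries did not overlap in either condition. Angptl4, a secreted inhibitor of lipoprotein lipase, averaged 179 ± 3.87 CPM in KO and 79.1 ± 11.9 CPM in WT with IL-4 (1.18, SE 0.10, adjusted p = 3.49e-06), and 251 ± 19.9 CPM in KO and 135 ± 7.64 CPM in WT mock cells (0.89, SE 0.10, adjusted p = 2.01e-05). Lrp1, an endocytic receptor of lipoprotein remnants, averaged 560 ± 54.0 CPM in KO and 880 ± 60.7 CPM in WT with IL-4 (-0.65, SE 0.13, adjusted p = 0.00285), and 523 ± 115 CPM in KO and 1209 ± 106 CPM in WT mock cells (-1.21, SE 0.13, adjusted p = 2.1e-05). Fabp3, a fatty acid-binding protein gene, averaged 1.15 ± 0.164 CPM in KO and 1.85 ± 0.194 CPM in WT with IL-4 (-0.69, adjusted p = 0.0430), a call lost in 15 of 22 alternative settings, among them the removal of any 1 library except KO mock library 1 or 3 and WT IL-4 library 3 (adjusted p up to 0.187). Furin, a protease that cleaves lipoprotein lipase, fell without IL-4 (-0.90, SE 0.09, adjusted p = 8.49e-06). Of 22 measured transcriptional regulators 4 rose and 6 fell with IL-4, and 6 rose and 6 fell without it. Among the regulators named by size, Hif1a, the gene of a hypoxia-inducible factor subunit, rose in KO cells given IL-4 (138.5 ± 9.09 CPM in KO, 66.3 ± 13.9 CPM in WT, 1.06, SE 0.12, adjusted p = 5.32e-05). Srebf2, the gene of a factor of sterol synthesis, fell with IL-4 (-0.55, adjusted p = 0.0201), a call lost without WT IL-4 library 1 or 2, KO IL-4 library 1 or 2, or both KO libraries numbered 2 (0.102). Egln3, a hypoxia-induced prolyl hydroxylase gene, rose with IL-4 (1.46, SE 0.21, adjusted p = 0.000246) and without it (0.97, SE 0.18, adjusted p = 0.00111). Cebpb rose without IL-4 (1.08, SE 0.10, adjusted p = 7.55e-06), and Mlxip, the gene of a glucose-sensing factor, fell (-0.86, SE 0.09, adjusted p = 1.59e-05). In the other condition these genes differed in the same direction, without overlap of KO and WT libraries. In mock cells, Hif1a averaged 104 CPM in KO and 81.1 CPM in WT, Srebf2 77.9 and 138 CPM, and Fabp3 2.43 and 4.30 CPM. With IL-4, Cebpb averaged 450 CPM in KO and 308 CPM in WT, Mlxip 61.9 and 85.3 CPM, and Furin 125 and 184 CPM.

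**Figure D5:**
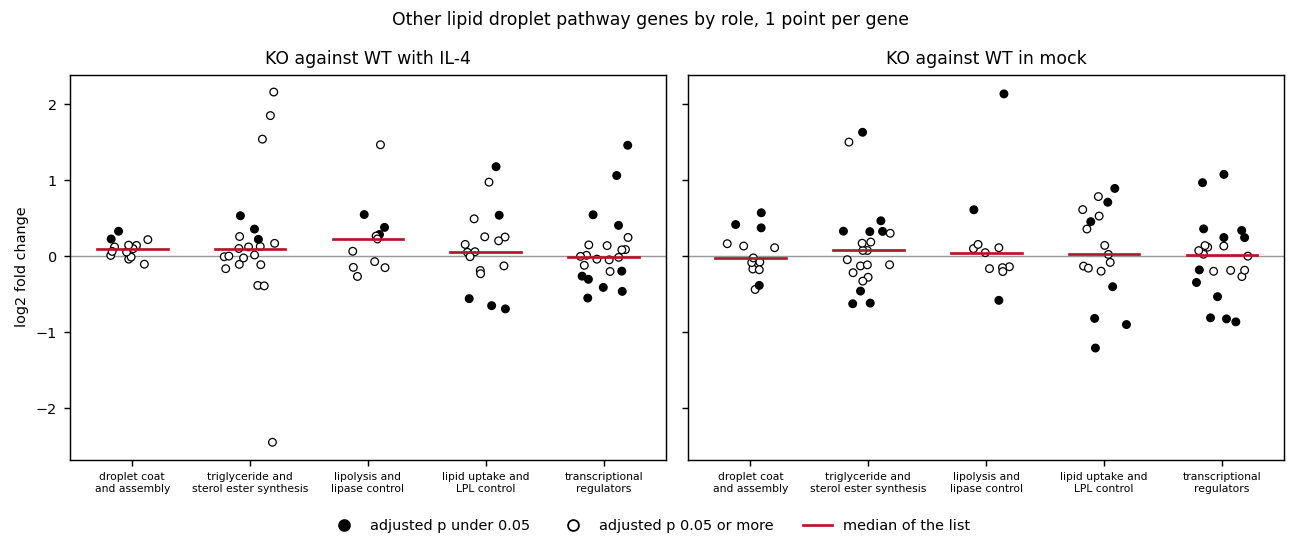
Log2 fold change of KO against WT for each measured gene of the 5 lists (points; filled at an adjusted p under 0.05), with the list median in red, with IL-4 on the left and without on the right. Each list has genes above and below 0, and the medians lie between -0.02 and 0.23.

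In response to IL-4, the same lists had 20 genes that rose and 18 that fell in KO, and 15 that rose and 16 that fell in WT, of 84 measured, where 30.3% of all genes were called in KO and 26.7% in WT. Without both KO libraries numbered 2, 14 rose and 14 fell in KO. Of the 11 genes of the lipolysis list 4 fell and 1 rose in KO (2 and 0 without both KO libraries numbered 2), and 4 fell and none rose in WT. Ubxn8 was among those that fell in both genotypes. Pparg, the gene of a nuclear receptor of lipid storage, averaged 72.2 ± 0.816 CPM with IL-4 and 37.0 ± 2.24 CPM in mock KO cells (0.97, SE 0.07, adjusted p = 1.65e-07), and 74.6 ± 4.12 CPM with IL-4 and 42.1 ± 2.21 CPM in mock WT cells (0.83, SE 0.07, adjusted p = 6.71e-07). Agpat3, an acyltransferase gene, rose in KO (0.83, SE 0.07, adjusted p = 6.83e-07) and WT (1.01, SE 0.07, adjusted p = 8.05e-08), and Mettl7a1, a droplet-associated protein gene, rose in KO (1.01, SE 0.11, adjusted p = 4.73e-06) and WT (0.77, SE 0.10, adjusted p = 5.86e-05). Lpin2 fell in KO (-1.01, SE 0.10, adjusted p = 2.95e-06) and WT (-1.07, SE 0.10, adjusted p = 1.51e-06). Apoe, the apolipoprotein E gene, fell in KO (-0.94, SE 0.14, adjusted p = 0.000123) and WT (-0.83, SE 0.14, adjusted p = 0.000316). Plin2 and Hilpda thus fell with IL-4 while Pparg rose, in both genotypes.

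Several genes named above for their genotype difference also passed the test for IL-4. Egln3 fell in KO (-1.23, adjusted p = 0.000155) and WT (-1.72, adjusted p = 1.97e-05), and Ubxn8 fell in KO (-0.59, adjusted p = 0.000955) and WT (-0.53, adjusted p = 0.00265). Fabp3 fell in KO (-1.09, adjusted p = 0.00189) and WT (-1.21, adjusted p = 0.000407), and Nceh1 fell in KO (-0.26, adjusted p = 0.0237) and WT (-0.43, adjusted p = 0.000864). The KO call of Nceh1 was lost with library size alone (0.0879), when any of KO mock libraries 2 and 3 and KO IL-4 libraries 1 and 3 was left out (up to 0.113), and without both KO libraries numbered 2 (0.0901). In KO cells Mlxip (0.84, adjusted p = 6.47e-06), Pcyt1a (0.55, adjusted p = 0.000996) and Gpam (0.51, adjusted p = 0.0316) rose and Tmem159 fell (-0.46, adjusted p = 0.00191). Gpam was not called when KO mock library 1 (0.115) or 3 (0.0939) was left out, nor after removal of KO IL-4 library 2 (0.0710) or 3 (0.136). Also in KO, Angptl2, an angiopoietin-like protein gene, averaged 634 ± 50.8 CPM with IL-4 and 268 ± 34.8 CPM in mock (1.24, adjusted p = 2.56e-07), and Lipe, the hormone-sensitive lipase gene, rose (0.35, adjusted p = 0.00574, and 0.0519 without both KO libraries numbered 2). In WT cells Bscl2 rose (0.24, adjusted p = 0.0114), and Tmem68 (-0.43, adjusted p = 0.00264) and Fabp7, a further fatty acid-binding protein gene (-0.94, adjusted p = 0.00606), fell. Lipa, the lysosomal acid lipase gene, fell in WT (-0.21, adjusted p = 0.0332), a call lost in 10 of 23 alternative settings, among them the length correction and the removal of WT mock library 1 or 2, WT IL-4 library 1 or 2, any 1 KO IL-4 library or both KO libraries numbered 2 (adjusted p up to 0.194). A call in 1 genotype does not show a difference between genotypes, and none of the genes in this paragraph was called in the interaction without a block.

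The genes whose profile over the 12 libraries was most like that of Hilpda were ranked by the root mean square difference of centred log2 CPM among 7946 protein-coding genes. The first 6 were Pf4 (0.51), Il1rn (0.52), Gpr35 (0.56), Dusp5 (0.57), Nr4a1 (0.57) and Vegfa (0.58). Vegfa, for example, averaged 82.7 CPM in KO and 13.7 CPM in WT with IL-4, and 138 CPM in KO and 46.4 CPM in WT mock cells. Among the lipid droplet genes Plin2 was the most like Hilpda, 40th of the 7946 at 0.95, followed by Dgat1 (175th) and Fabp5 (190th). Lpl was 7776th at 1.91. These ranks use the same 12 libraries as the values above and are a description only.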

How the data were processed

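RNA was sequenced from 12 BMDM samples in 4 groups of 3. The deposited table holds whole-number counts per gene and the gene length. Per the submitters' processing notes, the authors used bcl2fastq, STAR 2.7.2b, featureCounts of Subread 1.6.5, the mm10 build and edgeR. RNA was isolated with a spin-column kit, per the labels' protocols. The labels do not state the library preparation, the strand setting or the filter on low counts, and the lowest total of a gene in the table is 50 counts. Gene spans of 13571 of 13715 IDs, and of all 10 members, equal those of GENCODE M21.

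From these counts, edgeR 4.0.16 (R 4.3.3) was run with TMM scaling, filterByExpr, which removed 0 genes, and 1 coefficient per group over all 12 libraries (8 residual degrees of freedom, common dispersion 0.0115). Its quasi-likelihood test was two-sided, p-values were adjusted by Benjamini-Hochberg over 13715 genes, and genes were called at an adjusted p under 0.05. Fold changes are log2, KO over WT or IL-4 over mock. SEs are the fold change over the square root of F. Levels between genes are TMM-scaled CPM per kilobase of the deposited length. The fit was checked on simulated data. Replicates differed by more than sampling noise (chi-square per degree of freedom 10.6 to 84.6), so none was counted as a duplicate. TMM factors lay between 0.942 and 1.02.

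The members and lists were chosen with earlier results of these data known. Named were all members, Stk11, Lyz2, the 3 called genes of each list with the largest fold change per comparison with a mean log2 CPM no lower than 1, and the 6 genes most like Hilpda, with a mean log2 CPM no lower than 3. Cd36, G0s2, Gpat3, Agpat2, Agpat4 and Agpat5 were named after their values were seen.

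Pairing comes from the replicate numbers in the titles. Over 8126 genes, deviations from the group means of same-numbered IL-4 and mock libraries correlated at 0.55, 0.58 and 0.52 in KO and at 0.23, 0.49 and 0.41 in WT, so the numbers pair libraries within a genotype. Between KO and WT of the same treatment the correlations were -0.32 to 0.18, so they do not pair genotypes. Alternatives were DESeq2 1.42.0, median-of-ratios or library-size scaling, a filter of 1 CPM in 3 libraries, a length correction, fits of the compared groups alone, blocks on the replicate number, and leaving out each library or both KO libraries numbered 2. A further alternative, no filter on low counts, equals the main fit because filterByExpr removed 0 genes. It is counted among the 22 or 23 alternatives of a comparison and in the totals over all alternatives, but could change no call.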

Additional observations from a re-analysis of the deposited data

Results flagged for a closer look

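A difference of the IL-4 response between genotypes was called for Vhl in the fit without a block, and for Lpl and Fabp4 only with a block within genotype. Each of these calls depended on the fit. The interaction of Vhl, the gene of the ubiquitin ligase subunit that marks hypoxia-inducible factors for degradation, was -0.42 (SE 0.09, adjusted p = 0.0449, edgeR). Vhl was the 1 gene called in the interaction among the 84 measured list genes, where 0.736% of all genes were called. Vhl averaged 69.4 ± 2.87 CPM with IL-4 and 54.3 ± 0.928 CPM in mock KO cells, and 85.7 ± 3.63 CPM with IL-4 and 50.1 ± 0.865 CPM in mock WT cells (SD, n = 3 each), so that it rose with IL-4 in KO (0.35, SE 0.06, adjusted p = 0.000622) and in WT (0.78, SE 0.06, adjusted p = 3.02e-07). The interaction was not called in 16 of 23 alternative settings, among them the removal of any 1 library except WT IL-4 library 2 (adjusted p between 0.000391 and 0.133 over all 23).

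With the replicate number as a block within genotype, the interaction of Lpl was -0.32 (adjusted p = 0.0121) and that of Fabp4 0.45 (adjusted p = 0.0115). Lpl was lower with IL-4 in 3 of 3 KO pairs and higher in 3 of 3 WT pairs, and Fabp4 was lower in 3 of 3 pairs of each genotype. Neither passed without the block, where the adjusted p of Lpl was 0.291 and that of Fabp4 0.140. With the block, 11.6% of all genes were called in the interaction, among them 14 of the 84 measured list genes.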

How the results depend on the processing

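Over all alternatives, 1042 of 1130 values of the 10 members stayed the same, 34 lost and 21 gained a call, 29 turned direction and 4 moved. For tested values, the same means the same side of the threshold and the same direction. The 1130 include Hilpda in KO against WT in both conditions and Lpl in KO against WT mock cells. Those differences chose the list and were not tested, so they have no call to keep. Of 1419 values of other named genes 1318 stayed, 97 lost and 3 gained a call, and 1 turned. Hilpda in KO against WT without IL-4 was 2.49 with the length correction, alone and with the replicate block by number. Its IL-4 change in KO with the length correction was -0.29, and its interaction with the replicate block within genotype and the length correction was 0.44 (called, adjusted p = 0.0114).
Without both KO libraries numbered 2, KO against WT with IL-4 gave 715 genes higher and 881 lower and 9 list genes that rose, and the interaction gave 0, 0 and 0. For the interaction, library size alone gave 24 genes lower and 0 list genes that fell, DESeq2 gave 324 higher and 427 lower with 4 list genes rising and 4 falling, and the length correction and both blocks by number gave 0 list genes that fell. The replicate block within genotype gave 891 higher and 705 lower (11 and 3 list genes), and with the length correction 464 and 411 (5 and 6), against 45 and 56 without a block. The block within genotype alone changed the calls of Lpl and Fabp4 given with the pairs, and no other call of a member. With the length correction it also called Dgat1 for IL-4 in KO (0.21, adjusted p = 0.0311). The block by number lost Abhd5 in KO against WT with IL-4 (0.0722), and with the length correction Plin3 (0.0578), Pnpla2 (0.136) and Abhd5 (0.0919) without IL-4.
The interaction of Plin2 turned to 0.0580 with library size alone, 0.0449 with the length correction, 0.0450 with that and the block by number, and 0.0495 with that and the block within genotype. That of Abhd5 turned to -0.0572, -0.0572 and -0.0588 with these 3 length corrections.
Leaving out each library in turn gave, for KO against WT without IL-4, 8 to 17 list genes that fell. With IL-4 it gave 775 to 1265 genes higher, 883 to 1479 lower, and 9 to 16 list genes that rose and 5 to 11 that fell. For the interaction it gave 0 to 32 genes higher, 0 to 75 lower, 0 to 1 list gene that fell, and -0.12 to 0.0630 for Plin2, -0.0339 to 0.0606 for Abhd5, -0.33 to 0.48 for Dgat2 and -0.0166 to 0.14 for Dgat1. The IL-4 change in KO was -0.14 to 0.22 for Dgat2, and in WT -0.43 to 0.38 for Dgat2, -0.00845 to 0.11 for Dgat1 and -0.0769 to 0.19 for Stk11.
With principal transcript lengths, mean CPM per kilobase was 2462 for Plin2, 1329 for Fabp5, 1062 for Lpl, 161 for Pnpla2, 87.5 for Plin3, 84.0 for Fabp4, 23.8 for Dgat1 and 18.4 for Abhd5. By construction, these lengths change levels and no fold change. The causes of the other changes were not tested. The least abundant member, Dgat2, had 179 to 495 counts a library, and depth limits Adipoq, at 0 counts in WT mock libraries.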
